A study of Homo sapiens with 60 samples.

Results

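The genes described here are 9 genes of fatty acid oxidation and of the response to PPAR receptors: HADHA, HADHB, CPT1A, CPT2, ACADVL, ACADM, PDK4, PLIN2 and ANGPTL4. They were chosen by name with earlier results of these data known, so counts of members called describe these genes only. Each was found once among the 60675 genes of the deposited table. The RNA came from HT29 cells, a line long established from a human colorectal adenocarcinoma, kept for 24 h with vehicle alone or with an ethanol extract of 1 of 4 herbs or 1 of 4 herbal formulas. The herbs were Polygalae Radix (380, 76 and 15.2 µg/mL), Aucklandiae Radix (370, 74 and 14.8 µg/mL), Menthae Herba and Saposhnikoviae Radix (each 500, 100 and 20 µg/mL). The formulas were Saengmaek-san, Guibi-tang, Soyo-san and Okbyeongpung-san, each at 500, 100 and 20 µg/mL. These 3 doses are called high, medium and low below, and where an extract's IC20 fell under the common top dose the high dose was that IC20, per the series' design text. By that rule the 380 and 370 µg/mL of Polygalae and Aucklandiae Radix, under the 500 µg/mL of the others, would be IC20 doses. High doses are therefore not alike between extracts. The vehicle group had 3 libraries, the extract groups had 3 or 2, and Okbyeongpung-san had 1 per dose. The vehicle was DMSO, which the labels of the 3 vehicle libraries give as 0.1% and the design text as 2%, so its concentration is not settled here; the labels give none for the extract libraries. Whether replicates were separate cultures is not in the labels, so the spread behind each p-value is that of these libraries and may be technical only.

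Long-chain fatty acids enter mitochondria as carnitine esters, made by CPT1A on the outer membrane and turned back to acyl-CoA by CPT2 on the inner membrane. Acyl-CoA dehydrogenases such as ACADVL (very long chains) and ACADM (medium chains) then take the first step of each round of β-oxidation. HADHA and HADHB are the α and β subunits of the mitochondrial trifunctional protein, which carries out the remaining steps on long chains. PPARs are nuclear receptors that bind fatty acids, pair with RXR and switch on many of these genes, and PDK4, PLIN2 and ANGPTL4 are widely used as readouts of their activity. In colon epithelium these pathways also handle fatty acids from the gut lumen.

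Library totals ran from 18690501 to 36796414 counts in 59 libraries. The remaining library, Saposhnikoviae Radix low replicate 2, had 17079221 counts, a best correlation of 0.848 with its group's other libraries against at least 0.996 elsewhere, and 3.33% mitochondrial counts against 6.19 to 12.3% elsewhere. It is left out of the results below, and its values are given in the closing section. Of 7 colon epithelial markers, 6 averaged at least 1 CPM (counts scaled by library size with TMM factors), led by EPCAM at 515 CPM, while CDX1 averaged 0.68 CPM. Of other cell types' markers, 4 of 5 for blood cells, 3 of 5 for fibroblasts, 3 of 4 for hepatocytes and 2 of 4 for adipocytes (ADIPOQ and LEP, with no count) averaged under 0.1 CPM. The rest were CD68 at 7.56, COL1A1 at 1.43, LUM at 0.78, CIDEC at 0.63, PLIN1 at 0.43 and TTR at 0.33 CPM. Every library title names the same batch, D. Library names begin with a number shared by all doses of an extract and by pairs of extracts, read here as a library set. Vehicle names begin with a different code that includes a letter, and the labels do not say what either code stands for. In comparisons with vehicle an extract's effect and a possible difference between sets therefore cannot be told apart. On this reading of the names, comparisons of doses, or of extracts of the same set, do not have this limit.

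In vehicle cells the 9 genes fell into a broad range when levels were divided by the length of all annotated exons together. HADHA stood at 36.1 CPM per kb, ACADVL at 31.1, CPT1A at 16.8 and HADHB at 10.3 CPM per kb. ACADM had 5.31, CPT2 2.88, PLIN2 1.37 and PDK4 1.05 CPM per kb, and ANGPTL4 was lowest at 0.051 CPM per kb. The summed exon length of CPT2 is 10.5 kb because of long annotated transcripts, so its place in this order depends on which transcripts the cells make. The per-gene positions below are from GENCODE 29 on GRCh38, where HADHA and HADHB overlap each other, and CPT2, ACADVL, ACADM and ANGPTL4 also overlap other genes (C1orf123, DLG4, RABGGTB and RAB11B-AS1 among them). How the authors' counting treated strand is not given in the sources used here, so reads of such neighbours may be shared.

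**Figure D1:**
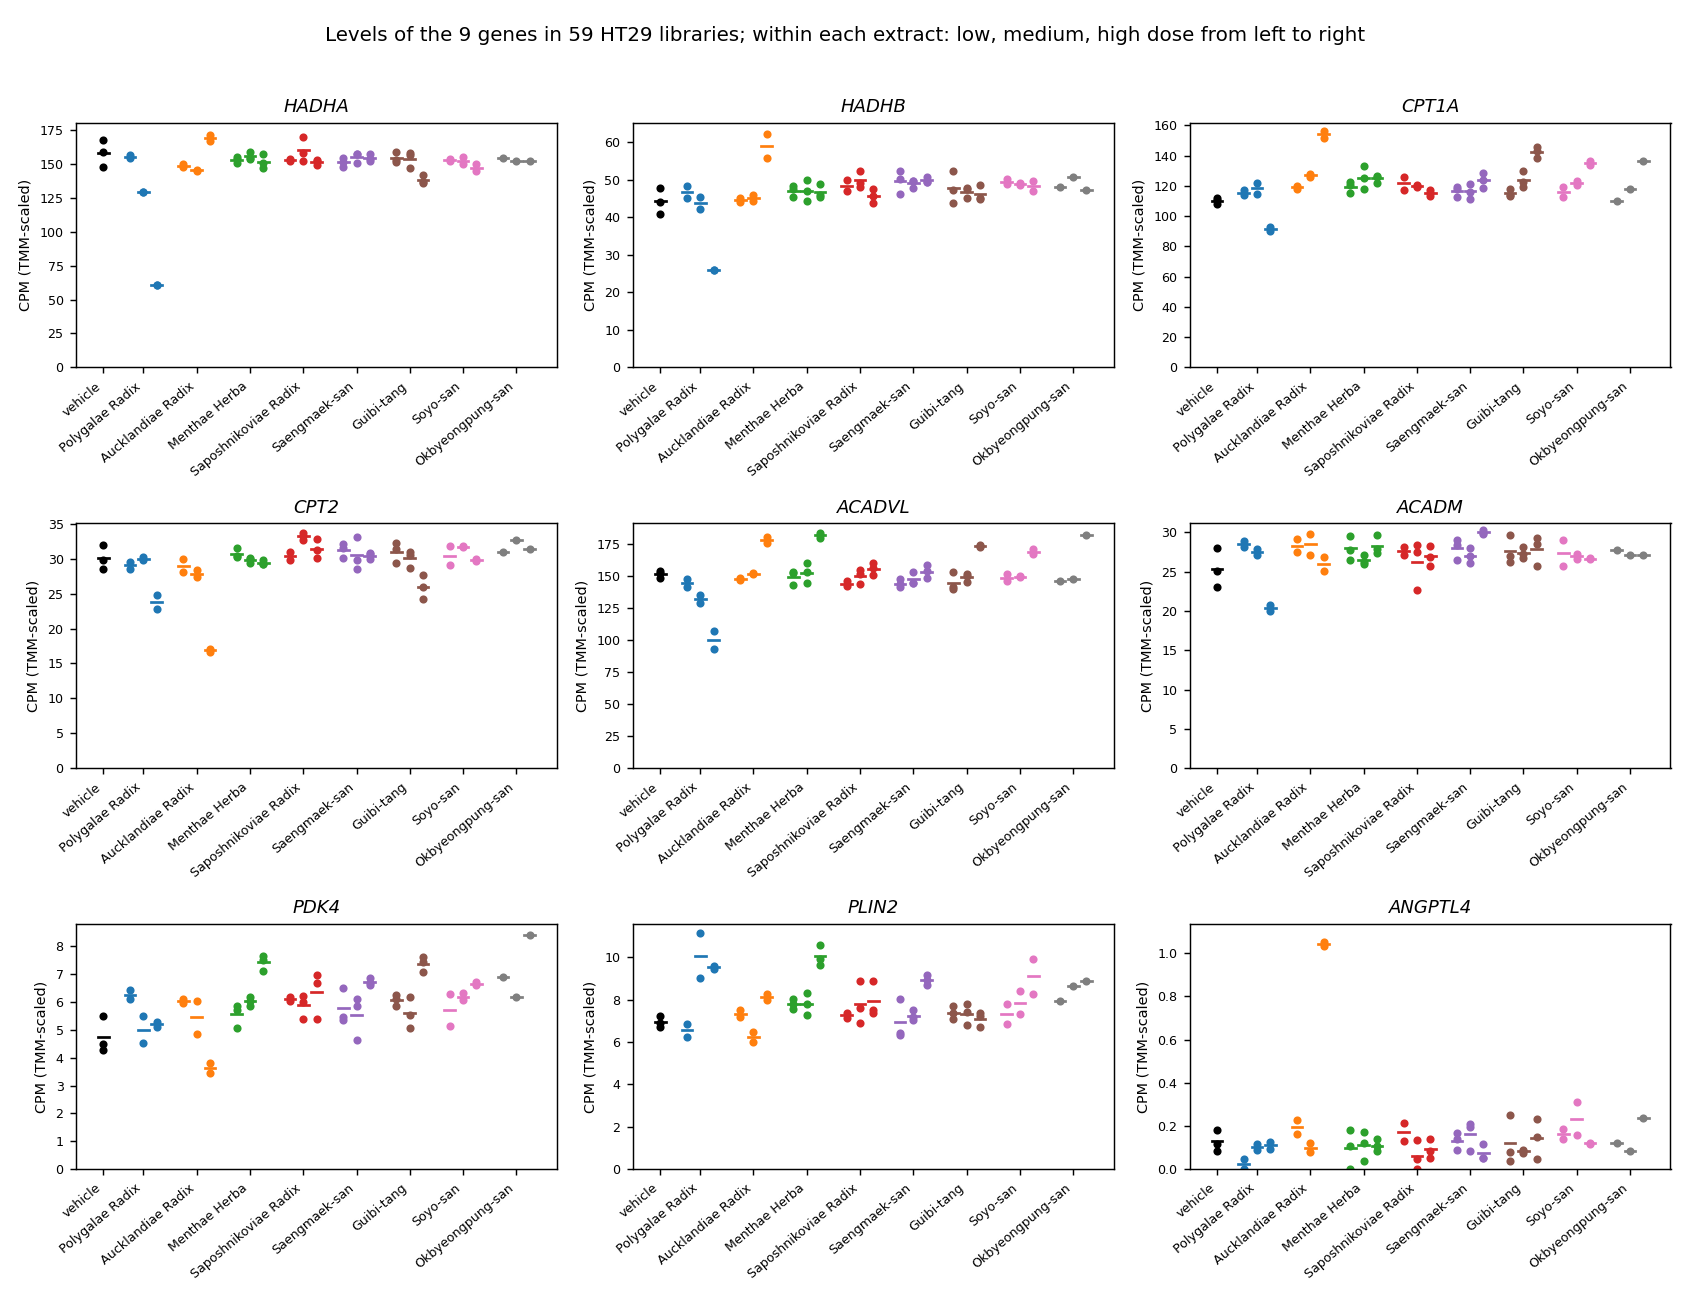
Level of each gene in CPM (TMM-scaled, linear axis from 0) for 59 libraries, grouped by extract with low, medium and high dose from left to right; points are libraries and bars are group means. The 2 Polygalae Radix high libraries hold the lowest HADHA values (61.1 and 60.8 CPM), and ANGPTL4 stands near 1 CPM only in the 2 Aucklandiae Radix high libraries.

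Polygalae Radix at its high dose lowered all 6 enzymes of the mitochondrial oxidation route and raised the lipid droplet coat gene PLIN2, compared with its own low dose. HADHA fell 2.55-fold, HADHB 1.80-fold, ACADVL 1.44-fold, ACADM 1.40-fold, CPT1A 1.26-fold and CPT2 1.22-fold. PLIN2 was 1.46-fold higher, PDK4 did not pass the test, and ANGPTL4 was too low to compare. So 7 of 9 members passed the edgeR quasi-likelihood test with Benjamini-Hochberg adjustment, 1 higher and 6 lower, where 29.4% of all genes tested passed it, 13.4% higher and 16.1% lower. The count stayed at 7 when any 1 library was left out. It was 4 when the library set aside was put back in the fit, with CPT1A, CPT2 and ACADM no longer called.

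HADHA (ENSG00000084754, chr2:26190635-26244726, minus strand), the subunit with the hydratase and long-chain dehydrogenase activities, had the largest change of the 9 genes here. Its level was 61.1 and 60.8 CPM in the 2 high-dose libraries, 129.9 and 129.8 CPM at the medium dose, 154 and 157 CPM at the low dose, and 148, 159 and 168 CPM in vehicle. The 3 doses did not overlap, and the low dose lay within the vehicle range. The log2 change from low to high dose was -1.35 ± 0.05 (SE; adjusted p = 9.39e-26 by edgeR, n = 2 and 2), and the medium dose was already lower than the low dose by -0.26 ± 0.05 (adjusted p = 0.000158 by edgeR). At the medium dose HADHA and PLIN2 were the 2 members that passed against the low dose, where 5.09% of genes did.

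HADHB (ENSG00000138029, chr2:26243170-26290468, plus strand), the thiolase subunit, stood at 25.92 and 25.94 CPM at the high dose. Its medium-dose libraries had 42.3 and 45.4 CPM, its low-dose libraries 48.4 and 45.2 CPM, and vehicle 47.9, 44.1 and 40.8 CPM. The high dose alone was separate, and the medium, low and vehicle ranges overlapped. Its log2 change from low to high dose was -0.85 ± 0.07 (SE; adjusted p = 9.22e-13 by edgeR).

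The 2 subunits are encoded head to head. RefSeq starts on GRCh38.p14 lie 307 bases apart, and the promoter windows of the 2 genes (250 bases before to 50 after each start) share 194 bases at chr2:26244689-26244882. That shared stretch is shown because both genes read away from it. It runs 5′ to 3′ on the plus strand, the strand of HADHB, and lies within the annotated span of HADHB in GENCODE 29; capitals mark a GC box (GGGCGG on either strand):
HADHA and HADHB: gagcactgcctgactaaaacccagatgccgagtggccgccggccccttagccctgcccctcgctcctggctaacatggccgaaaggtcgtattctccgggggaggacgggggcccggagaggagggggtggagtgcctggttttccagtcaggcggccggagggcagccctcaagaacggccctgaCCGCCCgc
The stretch is 68.6% G or C, and the median of all 35116 windows of that table is 58.7%. A GC box is in the window of 8 of the 9 genes and in 45% of all windows, so the match is common. Neither the nuclear receptor half-site AGGTCA (13.8% of all windows), nor 2 half-sites with 1 base between them, AGGTCANAGGTCA (0.0228%), nor the forkhead letters GTAAACA (3.42%) were found on either strand in the windows of the 9 genes. Those absences concern only these letters in these windows.

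The balance of the 2 subunits was also read in each library. HADHA over HADHB, as a ratio of CPM within each library, was 2.34 and 2.36 at the high dose of Polygalae Radix, with a mean of 3.33 at its low dose (3.19 and 3.47) and 3.60 in vehicle (3.09 to 4.12). Aucklandiae Radix high had the next lowest mean ratio, 2.88 (2.76 and 2.99), there with both subunits up. In the other groups of 2 or 3 libraries mean ratios lay between 2.96 and 3.34. The ratio was not tested.

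**Figure D2:**
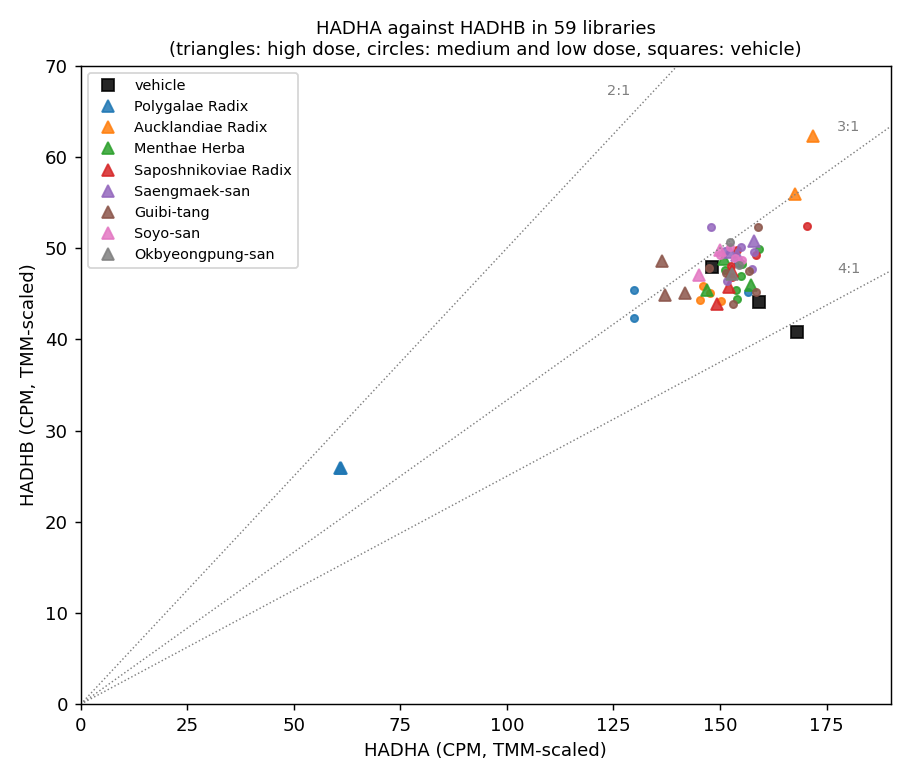
HADHA (horizontal) against HADHB (vertical) in CPM for 59 libraries, with dotted lines at ratios of 2, 3 and 4 to 1. Both Polygalae Radix high libraries lie alone near 61 and 26 CPM, the 2 Aucklandiae Radix high libraries lie at the upper right, and the other libraries form 1 cloud.

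The dehydrogenases and the carnitine shuttle moved less under Polygalae Radix. ACADVL (ENSG00000072778, chr17:7217125-7225273) was at 107 and 92.5 CPM at the high dose, 135 and 129 CPM at the medium, 141 and 148 CPM at the low dose and 148 to 154 CPM in vehicle. The 3 doses did not overlap, and the log2 change was -0.53 ± 0.05 from low to high (adjusted p = 5.23e-11 by edgeR). ACADM (ENSG00000117054, chr1:75724347-75787575) had 20.0 and 20.8 CPM at the high dose and 28.1 and 28.9 CPM at the low dose, a change of -0.48 ± 0.08 (adjusted p = 1.53e-05 by edgeR); its vehicle libraries spread from 23.0 to 28.1 CPM.

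CPT1A (ENSG00000110090, chr11:68754620-68844410), the gate of the shuttle, had 92.9 and 90.1 CPM at the high dose of Polygalae Radix against 114 and 117 CPM at the low dose, a log2 change of -0.34 ± 0.05 (adjusted p = 5.73e-07 by edgeR). CPT2 (ENSG00000157184, chr1:53196429-53214197) had 24.8 and 22.8 CPM against 29.5 and 28.5 CPM, a change of -0.28 ± 0.06 (adjusted p = 0.000561 by edgeR). For both genes the high-dose libraries lay below every low-dose and vehicle library.

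PLIN2 (ENSG00000147872, chr9:19108375-19149290), which coats lipid droplets, went the other way. It had 9.47 and 9.61 CPM at the high dose and 11.1 and 9.02 CPM at the medium dose, above the 6.84 and 6.25 CPM of the low dose and the 6.71 to 7.21 CPM of vehicle. The medium and high doses overlapped, with log2 changes against the low dose of 0.63 ± 0.11 and 0.55 ± 0.11 (adjusted p = 0.000168 and 0.000204 by edgeR). Without medium replicate 2 the medium-dose change was 0.46 and no longer passed. The 7 epithelial markers summed to 875 to 899 CPM at this high dose and to 1335 to 1445 CPM in vehicle, with VIL1 and LGALS4 among the 4 lower than at the low dose; their part in the changes above was not tested.

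Aucklandiae Radix at its high dose split the shuttle: CPT1A rose while CPT2 fell. Against its own low dose, HADHB was 1.33-fold, CPT1A 1.3-fold, ACADVL 1.21-fold and HADHA 1.14-fold higher, while CPT2 was 1.72-fold and PDK4 1.67-fold lower. ANGPTL4 appeared near 1 CPM. By edgeR's quasi-likelihood test 6 of the 8 members other than ANGPTL4 passed, 4 higher and 2 lower (7 of 9 with it), where 59.1% of all genes passed, 29.9% higher and 29.2% lower, so most genes of these cells differed as well. ANGPTL4 entered the test only because of this group, since 8 members passed the filter on low counts without it, so its call supports nothing. The 2 high-dose libraries had 6.52 and 6.19% mitochondrial counts, the lowest of the 59 libraries, against 11.0 and 9.82% at the low dose; the part of this in the changes below was not tested.

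CPT1A stood at 152 and 157 CPM at the high dose of Aucklandiae Radix, 126 and 128 CPM at the medium and 118 and 120.2 CPM at the low dose. Those doses did not overlap, and all 6 libraries lay above the 108 to 112 CPM of vehicle. The change from low to high dose was 0.37 ± 0.05 on the log2 scale (adjusted p = 6.48e-09 by edgeR). CPT2 had 16.7 and 17.1 CPM at the high dose, the lowest CPT2 values of the 59 libraries, and 28.0 and 29.9 CPM at the low dose, a change of -0.78 ± 0.07 (adjusted p = 5.15e-14 by edgeR).

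The trifunctional protein genes were higher at this dose. HADHA had 172 and 167 CPM at the high dose and 148 and 150.1 CPM at the low dose (log2 change 0.19 ± 0.04, adjusted p = 0.000274 by edgeR), although the high dose overlapped the vehicle range of 148 to 168 CPM. HADHB had 62.3 and 55.9 CPM against 45.1 and 44.2 CPM (0.41 ± 0.07, adjusted p = 1.25e-06 by edgeR), above all other libraries. ACADVL had 180.4 and 175 CPM against 147 and 148 CPM (0.27 ± 0.05, adjusted p = 1.42e-05 by edgeR), and ACADM, with 26.9 and 25.1 CPM against 27.5 and 29.1 CPM, did not pass.

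PDK4 (ENSG00000004799, chr7:95583499-95596491) encodes a kinase that shuts down pyruvate dehydrogenase when cells burn fat. It had 3.44 and 3.79 CPM at the high dose of Aucklandiae Radix, 6.05 and 4.86 CPM at the medium, 6.12 and 5.97 CPM at the low dose and 4.26 to 5.51 CPM in vehicle. The high dose lay below all of these, with a log2 change from low dose of -0.74 ± 0.14 (adjusted p = 1.09e-05 by edgeR). Against vehicle the change was -0.42 ± 0.13 (adjusted p = 0.0049 by edgeR), a call lost without vehicle replicate 1 or without high replicate 2.

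ANGPTL4 (ENSG00000167772, chr19:8363289-8374373), a secreted inhibitor of lipoprotein lipase, had 53 counts in all in the 2 Aucklandiae Radix high libraries, or 1.05 and 1.03 CPM. The other 54 libraries of the fit had 0 to 8 counts with a median of 3, or 0 to 0.311 CPM. In 3 of them it had no count, which allows a level of up to 3 counts, or at most 0.139 CPM. Per effective library size, the ratio of the summed counts to those of the low dose (10 counts) was 5.35, and to those of vehicle (11 counts) it was 8.48. Both high-dose libraries lay above all others of the fit. Since the gene passed the filter only through them, these values are a description with no test. The gene nevertheless remained the lowest of the 9 per kb of exon in vehicle and near 1 CPM at its highest in the fit. Its 250 RefSeq bases before the start, on the plus strand at chr19:8363905-8364154 (GRCh38.p14), are shown with the hypoxia genes in view. Most of the hypoxia genes listed below were higher in the same libraries than at the low dose, but CA9 and BNIP3 were lower. Any part of low oxygen in the ANGPTL4 level was not tested. The bases lie within the longer span GENCODE 29 gives the gene, and capitals mark the core letters of the hypoxia response element (ACGTG on either strand):
ANGPTL4: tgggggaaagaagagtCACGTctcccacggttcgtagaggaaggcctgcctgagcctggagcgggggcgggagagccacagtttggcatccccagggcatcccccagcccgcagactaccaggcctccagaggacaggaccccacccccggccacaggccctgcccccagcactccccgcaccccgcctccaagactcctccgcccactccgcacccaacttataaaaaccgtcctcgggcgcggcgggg
Those 5 letters were found in the windows of ANGPTL4, PLIN2 and ACADVL, or 3 of the 9 genes, and in 21.4% of all windows. In PLIN2 a match is part of an E-box, CACGTG, which is in 7.26% of all windows and counts on both strands.

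The blood cell markers summed to 45.2 to 47.5 CPM in the Aucklandiae Radix high libraries and to 6.28 to 9.0 CPM in vehicle. CD68, a lysosomal protein, carried that sum, and PTPRC, CD3E and HBB averaged under 0.1 CPM. Epithelial markers moved both ways there, with KRT20 and CEACAM5 higher and VIL1, LGALS4, CDX1 and CDX2 lower than at the low dose. The part of either in the members' changes was not tested.

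Polygalae and Aucklandiae Radix were in the same library set, so their high doses (380 and 370 µg/mL, each the labelled top dose) could be set against each other. Of the 8 members other than ANGPTL4 7 differed, 2 higher and 5 lower under Polygalae Radix (8 of 9 with it), where 58.6% of all genes did (edgeR). HADHA was 2.79-fold, HADHB 2.28-fold, ACADVL 1.78-fold and CPT1A 1.69-fold lower under Polygalae Radix, and CPT2 was 1.41-fold and PDK4 1.44-fold higher. PLIN2 did not pass, with a log2 difference of 0.23 and a 95% interval from 0.01 to 0.45. The change from low to high dose was also compared between the 2 extracts as an interaction. It differed for 8 members, 3 with a larger and 5 with a smaller value under Polygalae Radix, where 46.6% of all genes differed. The difference was largest for HADHA (-1.54 ± 0.06) and HADHB (-1.26 ± 0.10), and those of PDK4, PLIN2 and ACADM were lost in some alternatives. Without Aucklandiae Radix high replicate 2 the count was 5.

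Guibi-tang showed a smaller pattern, also with CPT1A up and CPT2 down. From low to high dose CPT1A rose by 0.31 ± 0.04, ACADVL by 0.26 ± 0.04 and PDK4 by 0.28 ± 0.10 on the log2 scale, while HADHA fell by 0.16 ± 0.04 and CPT2 by 0.25 ± 0.05, so 5 of 9 members passed where 18.1% of all genes did (edgeR). CPT1A had 146, 138 and 143 CPM at the high dose and 113, 114 and 118 CPM at the low dose. HADHA had 142, 137 and 136 CPM against 153, 151 and 159 CPM, and CPT2 had 25.9, 27.7 and 24.3 CPM against 32.2, 29.4 and 31.3 CPM. For none of these 3 genes did the doses overlap, as a description of called genes only. The PDK4 call (adjusted p = 0.0427 by edgeR) was lost when any of the 6 libraries was left out.

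Saengmaek-san, of the same set and at the same dose, differed from Guibi-tang in 5 of 9 members at the high dose, where 12.7% of all genes differed (edgeR). HADHA, CPT2 and PLIN2 were higher under Saengmaek-san, by 0.17 ± 0.04, 0.23 ± 0.05 and 0.33 ± 0.09 on the log2 scale, and CPT1A and ACADVL were lower, by -0.20 ± 0.04 and -0.17 ± 0.04. Against its own low dose PLIN2 alone passed (0.35 ± 0.09, adjusted p = 0.05 by edgeR, just under the threshold), where 0.83% of all genes did, and 4 members had an unadjusted p under 0.05. DESeq2 called none, and so did edgeR without any 1 of 5 of the 6 libraries. PLIN2 had 9.16, 8.91 and 8.68 CPM at the high dose and 8.04, 6.33 and 6.41 CPM at the low dose. The changes from low to high dose of these 2 formulas differed for 3 members where 7.3% of genes differed, and for none of the 9 without Saengmaek-san high replicate 3.

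Menthae Herba raised ACADVL, PDK4 and PLIN2 at its high dose, 3 of 9 members where 23.8% of all genes passed, 12.1% higher and 11.8% lower. With so few members, that count is near the share of all genes that passed. ACADVL had 183, 182 and 179 CPM at the high dose and 153, 152 and 143 CPM at the low dose, a change of 0.28 ± 0.04 (adjusted p = 1.23e-06 by edgeR). PDK4 had 7.66, 7.13 and 7.53 CPM against 5.08, 5.73 and 5.86 CPM (0.42 ± 0.10, adjusted p = 0.00121 by edgeR), and PLIN2 10.6, 9.91 and 9.63 CPM against 8.02, 7.54 and 7.77 CPM (0.37 ± 0.09, adjusted p = 0.00111 by edgeR). None of the 3 overlapped between doses, which describes genes already called, with no share of all genes computed. All 3 calls held when any 1 library was left out. At the medium dose no member passed against the low dose, with 0.0294% of genes passing and no member at an unadjusted p under 0.05 (DESeq2 also called 0).

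Set against Saposhnikoviae Radix at the same dose and in the same set, Menthae Herba was higher in CPT1A (0.12 ± 0.04), ACADVL (0.22 ± 0.04) and PLIN2 (0.34 ± 0.09), 3 of 9 where 16.1% of all genes differed (edgeR). The CPT1A difference was lost in most alternatives. Saposhnikoviae Radix itself had 0 members called by edgeR between high and low dose, 1 at an unadjusted p under 0.05 and 0 by DESeq2, where 0.289% of all genes were called. With the library set aside put back into its low-dose group, 4 members were called lower at the high dose. The change from low to high dose was not called different between these 2 herbs for any member by edgeR (3 at an unadjusted p under 0.05, 0 by DESeq2), where 3.68% of genes were.

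Soyo-san had 2 libraries per dose. CPT1A had 137 and 134 CPM at the high dose against 113 and 119 CPM at the low dose (0.22 ± 0.05, adjusted p = 0.00544 by edgeR), and ACADVL had 167 and 170.5 CPM against 146 and 151 CPM (0.18 ± 0.05, adjusted p = 0.0422 by edgeR). These were 2 of 9 members where 2.6% of all genes passed. Neither pair of doses overlapped, as a description of called genes only, but the count fell to 0 or 1 without any 1 of the 4 libraries.

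**Figure D3:**
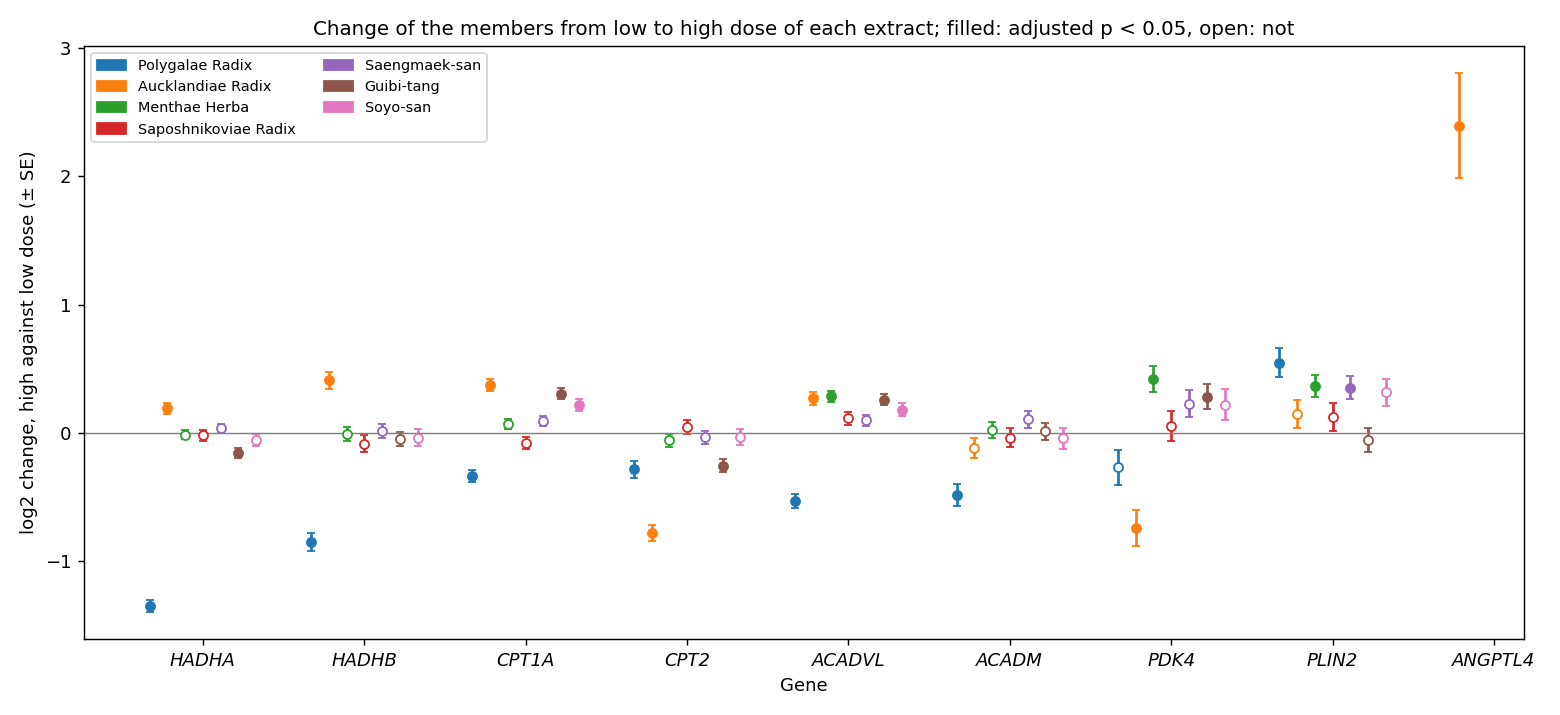
log2 change from low to high dose for each gene and extract, with standard errors from the edgeR fit; filled points passed an adjusted p under 0.05 and open points did not. The Polygalae Radix points for HADHA (-1.35) and HADHB (-0.85) are the lowest, and ANGPTL4 is drawn for Aucklandiae Radix alone, the 1 extract with counts enough to compare and the one through which it passed the filter, so its point is a description.

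Across the 7 extracts with replicates, ACADVL passed between high and low dose in 5 of 7, higher in 4 and lower in 1, and CPT1A in 4, higher in 3. CPT2 passed in 3, lower each time, and PLIN2 in 3, higher each time. HADHA passed in 3, higher in 1 and lower in 2. ACADM passed in 1. In all, 25 of 63 tests of a member passed, 15 higher and 10 lower. ANGPTL4 under Aucklandiae Radix is among the higher, although its call supports nothing. Polygalae and Aucklandiae Radix gave 7 calls each, where 29.4% and 59.1% of all genes passed. For the other extracts the share of all genes ran from 0.289% (Saposhnikoviae Radix) to 23.8% (Menthae Herba), so the total has no single share to stand beside. With the library set aside put back in the fit the counts were 4 for Polygalae Radix, 5 for Aucklandiae Radix, 2 for Menthae Herba, 4 for Saposhnikoviae Radix and 0 for the 3 formulas. Between medium and low dose, Polygalae Radix had the 2 calls given above, and the other 6 extracts had 0 by edgeR and by DESeq2. At an unadjusted p under 0.05 there was 1 member each for Aucklandiae Radix, Saposhnikoviae Radix and Guibi-tang and 0 for the rest. The shares of all genes called there were 2.64% for Aucklandiae Radix, 0.0294% for Menthae Herba, 0.124% for Guibi-tang and 0% for the remaining 3.

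Comparisons with vehicle share the same 3 vehicle libraries, so their values cannot be counted as independent. At the high dose 7 of the 8 members other than ANGPTL4 passed for Aucklandiae Radix (8 of 9 with it), where 62.6% of all genes did, and 7 for Polygalae Radix (36.8%). Guibi-tang and Saengmaek-san had 5 each (29.9% and 12.1% of all genes), Menthae Herba and Soyo-san 4 each (28.8% and 18%) and Saposhnikoviae Radix 1 (10.5%). The Aucklandiae Radix count of 8 was 5 without vehicle replicate 1 or without high replicate 2, and that of Soyo-san was 2 without its high replicate 2. The 1 call of Saposhnikoviae Radix, PDK4, was lost without vehicle replicate 3 or without high replicate 2 or 3, and without vehicle replicate 1 there were 2 calls. The members that passed for Polygalae Radix were the same 7 as against its low dose, with log2 changes of -1.38 ± 0.04 for HADHA and -0.78 ± 0.07 for HADHB.

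For PDK4 the choice of reference changed the calls. Its vehicle libraries had 5.51, 4.48 and 4.26 CPM, and 20 of the 21 extract groups had a higher mean, low doses among them at 5.56 to 6.27 CPM. Against vehicle it was called higher in 5 of 7 high-dose groups, while against the low dose of the same extract it was higher in 2, Menthae Herba and Guibi-tang, and lower in 1. CPT1A also had 20 of 21 groups above the vehicle mean, which was 110.3 ± 1.9 CPM (SD, n = 3). So did ACADM, while HADHB had 19 and PLIN2 18 of 21 groups above theirs. HADHA was the reverse, since 2 of 21 groups exceeded its vehicle mean of 158 ± 10.0 CPM (SD, n = 3). All these counts rest on the same 3 vehicle libraries, and the share over all genes was not computed.

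Medium doses against vehicle gave 3 calls for Polygalae Radix (10.4% of all genes), HADHA and ACADVL lower and PLIN2 higher. Aucklandiae Radix (13.9%) and Menthae Herba (10.5%) had 2 each, and Guibi-tang (11.3%) and Soyo-san (8.64%) 1 each. Saposhnikoviae Radix had 0 by edgeR, with 4 members at an unadjusted p under 0.05 and 2 called by DESeq2 (3.79% of all genes by edgeR). Saengmaek-san had 0 by edgeR and by DESeq2, with 1 at an unadjusted p under 0.05 (11.7%). Low doses against vehicle gave 4 calls among 63 tests, all higher: PDK4 for Polygalae Radix (10.3% of all genes) and Guibi-tang (6.31%), CPT1A for Saposhnikoviae Radix (11.7%) and HADHB for Saengmaek-san (18.4%). Each of these 4 was lost without vehicle replicate 3. Aucklandiae Radix (5%), Menthae Herba (9.66%) and Soyo-san (10.1%) had 0 by edgeR at the low dose, with 4, 2 and 2 members at an unadjusted p under 0.05 and 0, 1 and 0 called by DESeq2.

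The other genes of these pathways were read from lists of names, also chosen with earlier results of these data known. The counts below therefore describe the lists only. Under Polygalae Radix, 10 of 13 tested genes of mitochondrial β-oxidation beyond the members were lower at the high than at the low dose and none were higher, with a median log2 change of -0.53, where 16.1% of all genes were lower and the median of all genes was -0.01. DECR1, which handles unsaturated chains, was at 6.45 CPM against 14.1 CPM (-1.13 ± 0.11, adjusted p = 1.00e-10 by edgeR), ACADSB at 2.38 against 5.51 CPM (-1.21 ± 0.15), HADH, the short-chain dehydrogenase, at 36.7 against 62.2 CPM (-0.76 ± 0.06), and ACAT1 at 16.6 against 27.1 CPM (-0.71 ± 0.08). The 3 genes that carry electrons away from the dehydrogenases, ETFA, ETFB and ETFDH, were among the 10. Peroxisomal β-oxidation had 9 of 12 lower and 0 higher, with a median of -0.47. Its multifunctional enzyme HSD17B4 fell from 145 to 56.5 CPM (-1.36 ± 0.05, adjusted p = 7.05e-26 by edgeR), and EHHADH from 8.34 to 3.70 CPM (-1.16 ± 0.13). Of the fatty acid activation and carnitine genes 4 of 10 were lower, ACSL5 and CRAT among them, and 1 higher, SLC27A4.

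Receptors and cofactors did not follow the enzymes. In the list of PPAR and RXR receptors with their cofactors, 5 of 12 were higher and 1 lower at the high dose of Polygalae Radix. Beside this and the next 3 lists stand 13.4% of all genes higher and 16.1% lower. PPARG was at 103 CPM against 88.0 CPM (0.23 ± 0.05), the coactivator PPARGC1B at 25.2 against 17.3 CPM (0.54 ± 0.09) and ESRRA at 66.3 against 52.0 CPM (0.35 ± 0.07), while PPARA had 42.9 against 50.2 CPM (-0.23 ± 0.09). Of the other PPAR targets 2 of 11 tested passed, both lower, which is near the share of all genes. RETSAT was at 19.7 against 27.9 CPM (-0.50 ± 0.07). The pyruvate dehydrogenase list had 5 of 10 lower and 1 higher, with its subunit DLD at 58.0 against 94.8 CPM (-0.71 ± 0.06). The list of malonyl-CoA control of CPT1 had 3 of 6 lower and 0 higher, and ACACA, an enzyme that makes malonyl-CoA, was at 360 against 545 CPM (-0.60 ± 0.06).

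Under Aucklandiae Radix, mitochondrial β-oxidation had 7 of 13 lower and 1 higher, with a median of -0.30, where 29.2% of all genes were lower and 29.9% higher. HADH went from 61.8 to 14.7 CPM (-2.06 ± 0.06, adjusted p = 7.39e-29 by edgeR), a steeper fall than that of any member. Peroxisomal β-oxidation had 7 of 12 lower and 1 higher. In the activation list 3 of 10 were higher and 3 lower: the acyl-CoA synthetase ACSL5 rose from 238 to 420 CPM (0.82 ± 0.04) and SLC27A4 from 32.5 to 95.2 CPM (1.55 ± 0.06), while SLC27A2 fell from 38.1 to 12.7 CPM (-1.59 ± 0.07).

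Of the other PPAR targets 5 of 11 were higher and 3 lower under Aucklandiae Radix, beside the 29.9% and 29.2% of all genes, so the lower share was near that of all genes. FABP1, the liver-type fatty acid binding protein, fell from 1.32 to 0.112 CPM (-3.41 ± 0.50). RETSAT rose from 26.3 to 35.5 CPM (0.44 ± 0.06), opposite to its direction under Polygalae Radix. Among receptors 3 of 12 were higher and 5 lower: PPARD rose from 31.2 to 79.6 CPM (1.35 ± 0.06) and HNF4A, a nuclear receptor of epithelial identity, fell from 87.6 to 37.9 CPM (-1.21 ± 0.06). The lipid droplet list had 3 of 13 higher and 6 lower, with PLIN3 at 74.9 against 34.7 CPM (1.11 ± 0.06) and PLIN4 at 3.82 against 11.0 CPM (-1.52 ± 0.14).

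Hypoxia genes were the list furthest from 0 here by its median, 7 of 10 higher and 2 lower. Of all genes 29.9% were higher and 29.2% lower under Aucklandiae Radix. SLC2A1, the main glucose transporter, was at 2347 against 472 CPM (2.32 ± 0.04) and NDRG1 at 140 against 14.5 CPM (3.27 ± 0.09). VEGFA was at 144 against 64.3 CPM (1.17 ± 0.07) and CA9 at 8.75 against 27.1 CPM (-1.62 ± 0.09). Under Polygalae Radix the same list had 2 higher and 2 lower of 10, beside 13.4% and 16.1% of all genes. The glucocorticoid and FOXO genes, known regulators of PDK4 among them, had 5 of 10 higher and 4 lower under Aucklandiae Radix. The shares of all genes were again 29.9% and 29.2%, for this list and the 2 that follow. FOXO1 rose from 32.9 to 87.0 CPM (1.41 ± 0.06) and TXNIP fell from 46.1 to 11.5 CPM (-1.99 ± 0.10). In the pyruvate dehydrogenase list 4 of 10 were lower and 1 higher, the phosphatase PDP1 at 29.9 against 12.1 CPM (1.31 ± 0.09), and the malonyl-CoA list had 5 of 6 lower and 0 higher.

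**Figure D4:**
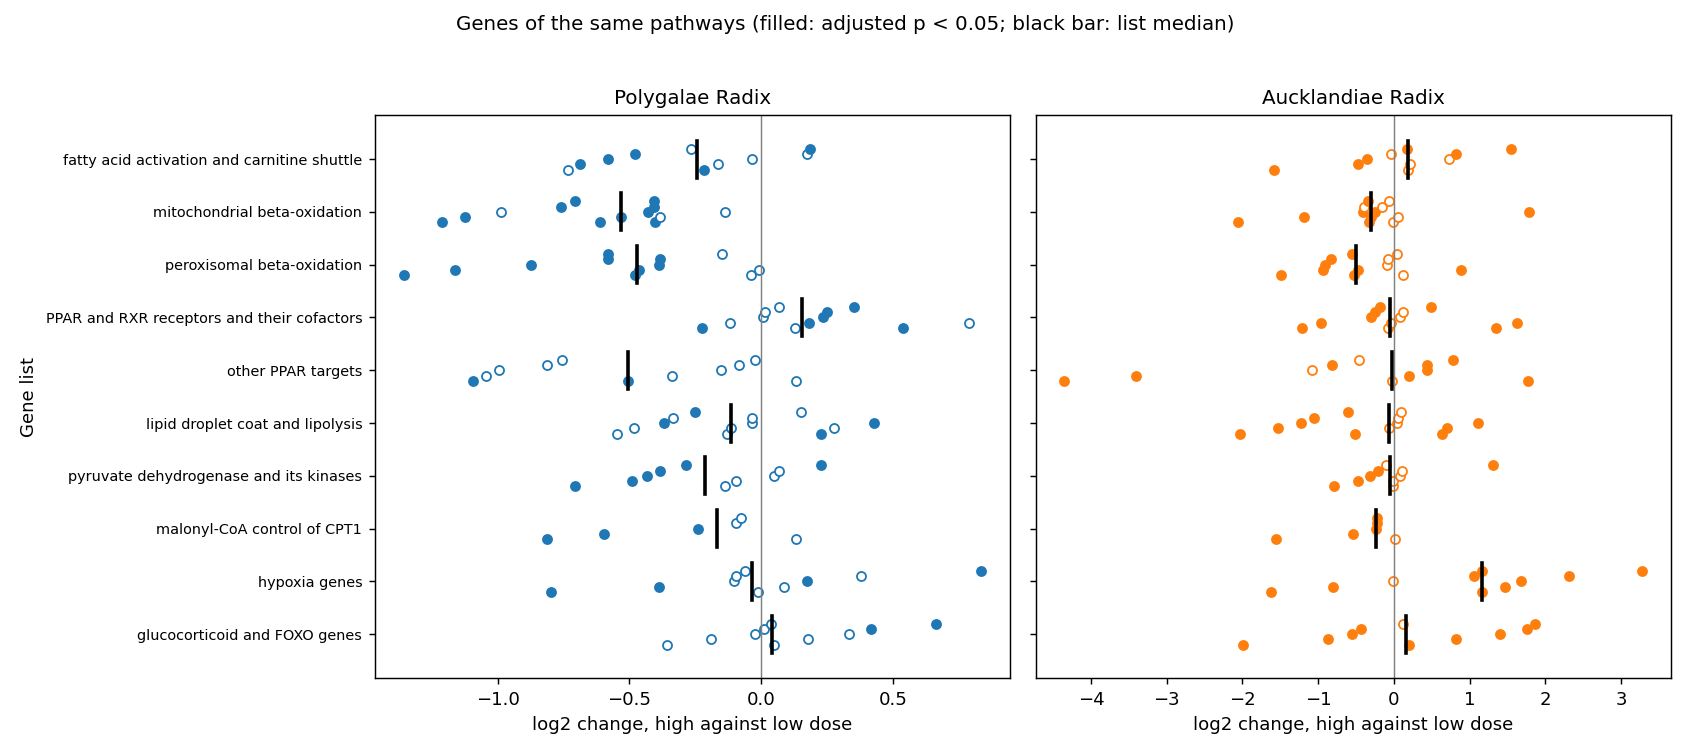
log2 change from low to high dose of each tested gene of 10 lists under Polygalae Radix (left) and Aucklandiae Radix (right; the 2 horizontal scales differ); filled points passed an adjusted p under 0.05 and black bars are list medians. The mitochondrial and peroxisomal β-oxidation medians are below 0 in both panels (-0.53 and -0.47, -0.30 and -0.50). The median of the hypoxia genes is above 0 in the Aucklandiae Radix panel, where CA9 and BNIP3 are below 0.

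Under Guibi-tang 2 of 13 mitochondrial and 4 of 12 peroxisomal β-oxidation genes were lower at the high than at the low dose and none were higher, where 9.16% of all genes were lower. Under Menthae Herba 1 of 13 mitochondrial genes was higher and 1 lower, and 4 of 12 peroxisomal genes were lower. Of all genes 12.1% were higher and 11.8% lower there.

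The genes whose mean levels over the 22 groups ran most nearly in parallel with a member were found among 10557 other genes with a mean of at least 5 CPM, as a description with no test. All groups share the fit and the scaling, and the 2 high doses named above hold most of the range. HADHA was most like MYH9 (Pearson r = 0.989), CYFIP1 and DPP3, and HADHB like VPS16 (r = 0.979), CTNNB1 and UNC45A. CPT2 was most like AKR7A2 (r = 0.981), IDH2 (r = 0.980) and HADH (r = 0.972). CPT1A ran with ANXA1 (r = 0.928), ACADVL with GHITM (r = 0.970), ACADM with SMARCA5 (r = 0.890), PDK4 with MRPL42 (r = 0.908) and PLIN2 with NOB1 (r = 0.866). HADHA and HADHB had r = 0.945 over all 22 groups, 0.65 without Polygalae Radix high and 0.50 without both high doses, so their likeness lay largely in those groups. CPT1A and CPT2 had r = -0.38, and -0.61 without both.

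Okbyeongpung-san, with 1 library per dose, allowed no test. From low to high dose CPT1A read 110.3, 118 and 136 CPM, ACADVL 146, 147 and 182 CPM, and PDK4 6.90, 6.18 and 8.40 CPM. HADHA read 154, 152 and 153 CPM, CPT2 31.0, 32.7 and 31.5 CPM and PLIN2 7.96, 8.63 and 8.87 CPM. These differences have no replicate check.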

How the data were processed

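The deposited values are expected counts per gene that the authors obtained with RSEM 1.3.3; STAR 2.7.3a, Trim Galore 0.6.5, FastQC 0.11.9 and the build hg38 (GRCh38) are also named, per the submitters' processing notes. Annotation release and strand setting: not given in the sources used here. Libraries were directional mRNA libraries read as paired ends, per the labels' protocols. Of 60675 genes, 56558 matched a symbol. Of the values 10.0% were not exact whole numbers, and all were rounded. In R 4.3.3, edgeR 4.0.16 (glmQLFit and glmQLFTest, TMM, filterByExpr on the groups) was fitted to 56 libraries in 22 groups, so that all groups share 1 spread, with 16978 genes kept and 34 residual degrees of freedom. There were 41 comparisons, each with p-values adjusted by Benjamini-Hochberg across the genes kept and calls at an adjusted p under 0.05. Saposhnikoviae Radix low replicate 2 and the 3 single-library Okbyeongpung-san groups stayed outside. Standard errors are the log2 change over the square root of F. Levels are CPM with TMM factors over all 60 libraries. Whether doses overlapped was read for the members only, so no share of all genes stands beside it. The script was tested on simulated data. Replicates of a group differed by more than counting noise (lowest chi-square per degree of freedom 2.09).

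The 9 members and the gene lists were chosen with earlier results of these data known. Named beside the members were, of each list, up to 4 called genes with the largest change, and for each member the 3 genes most similar over the groups; not all are printed, and some genes of the lists are not reported here. Genes named to show what else a list held, such as the ETF genes, RETSAT, VEGFA or the epithelial markers, were picked after their values were seen. Alternatives were RLE factors, DESeq2 1.42.0, no low-count filter, a fit of each library set with vehicle alone, a replicate block, the library set aside put back, each library left out, CPM without TMM, and, chosen after seeing the data, a fit without the high doses of Polygalae and Aucklandiae Radix. Promoter windows are from RefSeq on GRCh38.p14; all 9 genes matched, ACADVL with 2 windows. Limits from counts cover counting error only.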

Additional observations from a re-analysis of the deposited data

Results flagged for a closer look

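The change from low to high dose differed between Polygalae Radix and Aucklandiae Radix for 8 genes by an interaction term in the edgeR fit. The differences (Polygalae minus Aucklandiae, log2, with adjusted p by edgeR) were -1.54 for HADHA (2.05e-23), -1.26 for HADHB (2.45e-14), -0.80 for ACADVL (2.00e-12) and -0.71 for CPT1A (9.44e-12). They were 0.50 for CPT2 (1.48e-05), -0.36 for ACADM (0.00914), 0.47 for PDK4 (0.0411) and 0.40 for PLIN2 (0.0369). HADHA, HADHB, ACADVL and CPT1A thus moved in opposite directions under these herbs, while CPT2 was lower under both.

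Between Saengmaek-san and Guibi-tang the same term differed for HADHA (0.19, adjusted p = 0.0144 by edgeR), CPT1A (-0.22, 0.0103) and PLIN2 (0.41, 0.0478). All 3 were lost without Saengmaek-san high replicate 3.

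Saposhnikoviae Radix low replicate 2, left out of the comparisons, had 363 CPM of CPT1A, 3.24 times the highest vehicle library, 326 CPM of ACADVL (2.12 times), 84.6 CPM of CPT2 (2.65 times) and 3.00 CPM of ANGPTL4 (16.5 times). Its HADHA was 190.1 CPM, HADHB 34.3, ACADM 4.33, PDK4 3.83 and PLIN2 5.16 CPM.

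The single Okbyeongpung-san high library, also outside the tests, had 8.40 CPM of PDK4, 1.53 times the highest vehicle library.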

How the results depend on the processing

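Of 101 changes of a member called by edgeR, 98 held with RLE factors, 95 with DESeq2, 82 with no filter on low counts, 79 in the fit of a library set with vehicle alone and 101 with the replicate block. Leaving out each library in turn gave 561 values for them, of which 456 stayed called and 0 reversed. Among the 101 are the ANGPTL4 calls for Aucklandiae Radix high against vehicle, low dose and Polygalae Radix high, which support nothing. Pairing by replicate number was looked for in the 19 comparisons with 3 pairs, and 0 had every correlation over 0.1. Comparisons with fewer pairs, those of Polygalae, Aucklandiae and Soyo-san among them, are outside that count. Soyo-san high against vehicle had correlations of 0.165 and 0.177, so pairing is not excluded. With the block the Saposhnikoviae Radix low dose against vehicle had 2 calls in place of 1.

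Putting Saposhnikoviae Radix low replicate 2 back (57 libraries) kept 36 of the 101. Counts of members called at high dose against vehicle were then 4 for Polygalae and Aucklandiae Radix, 2 for Menthae Herba and Guibi-tang and 0 for Saposhnikoviae Radix, Saengmaek-san and Soyo-san. At the medium dose they were 0 for Aucklandiae Radix, Menthae Herba, Guibi-tang and Soyo-san, and at the low dose 4 for Saposhnikoviae Radix and 0 for Polygalae Radix, Saengmaek-san and Guibi-tang. Between high and low dose they were 4 for Polygalae and Saposhnikoviae Radix and 0 for Saengmaek-san, Guibi-tang and Soyo-san, and between medium and low dose 1 for Polygalae and 4 for Saposhnikoviae Radix. Between extracts they were 0 for Menthae Herba against Saposhnikoviae Radix and for Saengmaek-san against Guibi-tang, and for differences of changes 3 (Polygalae and Aucklandiae Radix), 2 (Menthae Herba and Saposhnikoviae Radix) and 0. ACADVL reversed to 0.43 at the Saposhnikoviae Radix low dose against vehicle, to -0.38 at high and -0.44 at medium against low dose, and CPT2 to -0.60 and -0.52, as that library's own levels enter those means.

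With RLE factors Soyo-san medium against vehicle had 2 calls, the low doses of Menthae Herba 1 and of Saposhnikoviae Radix 2, and Saengmaek-san high against low 0. With no filter, the medium doses of Aucklandiae Radix and Menthae Herba had 1 and of Soyo-san 0, the low doses of Polygalae Radix, Saposhnikoviae Radix, Saengmaek-san and Guibi-tang 0, Saengmaek-san and Soyo-san high against low 0 and 1, and the difference of Saengmaek-san and Guibi-tang 1. In the fit of a set with vehicle these were the same except 0 for Soyo-san high against low, and Soyo-san high against vehicle had 2. DESeq2 gave 2 for the medium doses of Saposhnikoviae Radix and Soyo-san, 1 and 2 for the low doses of Menthae Herba and Saposhnikoviae Radix, and 0 for Saengmaek-san high against low, as did the fit without both high doses. The cause was not tested for these.

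Without 1 library, counts at high dose against vehicle ran from 7 to 7 (Polygalae Radix), 5 to 8 (Aucklandiae Radix), 4 to 5 (Menthae Herba), 0 to 2 (Saposhnikoviae Radix), 4 to 4 (Saengmaek-san), 5 to 6 (Guibi-tang) and 2 to 6 (Soyo-san). In the same order they were 2 to 3, 1 to 2, 1 to 2, 0 to 2, 0 to 1, 0 to 2 and 0 to 3 at the medium dose, and 0 to 1, 0 to 2, 0 to 1, 0 to 2, 0 to 3, 0 to 1 and 0 to 2 at the low dose. High against low dose gave 7 to 7, 7 to 7, 3 to 3, 0 to 0, 0 to 1, 4 to 4 and 0 to 1, and medium against low 1 to 2 for Polygalae Radix. Differences of changes ran from 5 to 7 and, for the formulas, 0 to 3. ANGPTL4, with 0 to 8 counts in the 54 libraries of the fit outside Aucklandiae Radix high, is limited by depth.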
